A study of Homo sapiens with 12 samples.

Results

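The ATP-binding cassette (ABC) transporter family was described in MDA-MB-231 cells, an established triple-negative breast cancer line, with and without a mimic of miR-145-5p and with and without silencing of Ago2. Its members were the genes on the array whose current symbol is ABC, a subfamily letter from A to G and a number, pseudogenes left out, which gave 45 of 20708 genes and 1284 of 209671 probes assigned to genes. The symbols, and no measured value, chose them. Transcripts were measured on 12 single-color exon arrays, 3 for each of 4 groups, in an experiment described by the submitters as biological triplicate. The cntrl cells carried control forms of the mimic and of the siRNA, mimic145 cells the miR-145-5p precursor used as mimic, sirnaAGO2 cells a Dicer-substrate siRNA against Ago2, and sirnaAGO2+mimic145 cells both active oligonucleotides. The mimic was given at 5 nM and the siRNA at 500 pM for 72 h. The study names its unsilenced cells by a scrambled siRNA and its cells without the mimic by a control mimic, in assays that the arrays are said to follow, whereas the array labels name no control oligonucleotide for mimic145 or sirnaAGO2.

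ABC proteins bind and hydrolyze ATP in a pair of nucleotide-binding domains, and most of them use it to move a substrate across a membrane. Subfamilies A and G hold many exporters of lipids and sterols, B and C the classical pumps of drugs and conjugates as well as mitochondrial and channel-regulating members, and D the transporters of peroxisomes and lysosomes. Members of E and F have no membrane domain and act on ribosomes and translation. In breast cancer the family is best known for drug resistance through ABCB1 (P-glycoprotein), ABCC1 and ABCG2.

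A miRNA loaded on an Argonaute protein pairs with its target mRNAs mainly through its seed, bases 2 to 8, and lowers their amount or translation. The mature strand that the mimic stands for is shown because it defines the treatment, from RefSeq on GRCh38.p14 at chr5:149430661-149430683, plus strand, 23 bases, with the seed in capitals.
hsa-miR-145-5p: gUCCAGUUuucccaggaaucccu
A transcript with a full seed match carries AACUGGA. Sites in the ABC transcripts were not analysed here.

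A probe was kept if the scanner software, Feature Extraction, flagged it as well above background throughout some group, that is on each of its 3 arrays. The value of a gene is the mean over its kept probes of the quantile normalized log2 signal, so a difference of 1 is a doubling. Groups were compared with limma across all 18253 genes with a kept probe, taking the replicate as a block, and a gene passed with a two-sided p under 0.05 after Benjamini-Hochberg adjustment across these genes. The arrays read the RNA of whole cultures, so fewer cells with a transcript and less of it per cell cannot be told apart. Each slide held a pair of arrays of 1 replicate number, cntrl beside mimic145 or sirnaAGO2 beside sirnaAGO2+mimic145. The difference within a replicate is therefore a difference within a slide. The mimic was always at the second position, so an effect of position and one of the mimic cannot be told apart, and no slide held silenced beside unsilenced cells. The share of spots well above background ran from 60.5% to 77.3% by array. Precision is limited by the number of arrays, with a median SE of 0.10 for a log2 difference between groups. AGO2, the silenced gene, fell by 0.71 in sirnaAGO2 compared with cntrl (limma, adjusted p = 0.00493). Of 7 genes typical of this line, VIM and CD44 among them, 6 had most of their probes kept, and of 6 markers of blood, endothelial and liver cells 0 had. At least 1 probe was kept for 7 and 5 of them. Of 6 genes that are usually low in the line, EPCAM and GATA3 had most of their probes kept.

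ABC genes were detected less completely than the average gene of the array. Of their 1284 probes, 671 (52.3%) were kept, against 68.2% over all genes, and 26 of 45 members (57.8%) had most of their probes kept, against 62.3%. This is a description, with no test. The shares differed by subfamily. In subfamilies E and F, the ribosome-associated members, 100% and 97.9% of the probes were kept, and in D, with the peroxisomal and lysosomal transporters, 72.7%. The share was 59.5% in C, 57.0% in G, 43.3% in A and 39.2% in B. All probes were kept for 9 members, among them ABCA1, ABCB10, ABCC3, ABCC10, ABCD4, ABCE1, ABCF1 and the single probe of ABCF2.

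Detection was split within subfamilies B and A. In B, 5 members that act in mitochondria or lysosomes, among them ABCB6, ABCB8, ABCB9 and ABCB10, had most of their probes kept, and 3 others (ABCB4, ABCB5 and ABCB11) rested on 1 kept probe each. ABCB1, the P-glycoprotein gene, had 28 probes and none was kept. In A, 5 of 12 members had most of their probes kept (ABCA1, ABCA2, ABCA3, ABCA5 and ABCA7), and ABCA6, ABCA8, ABCA9, ABCA12 and ABCA13 had under 20%. The peroxisomal ABCD2, with 11 probes, had none. ABCB1 and ABCD2, for which some probes stood well above background on single arrays but none on all 3 of a group, were thus not tested, which left 43 members. They include members that passed the filter through few probes, so the counts below do not cover the whole family evenly.

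**Figure D1:**
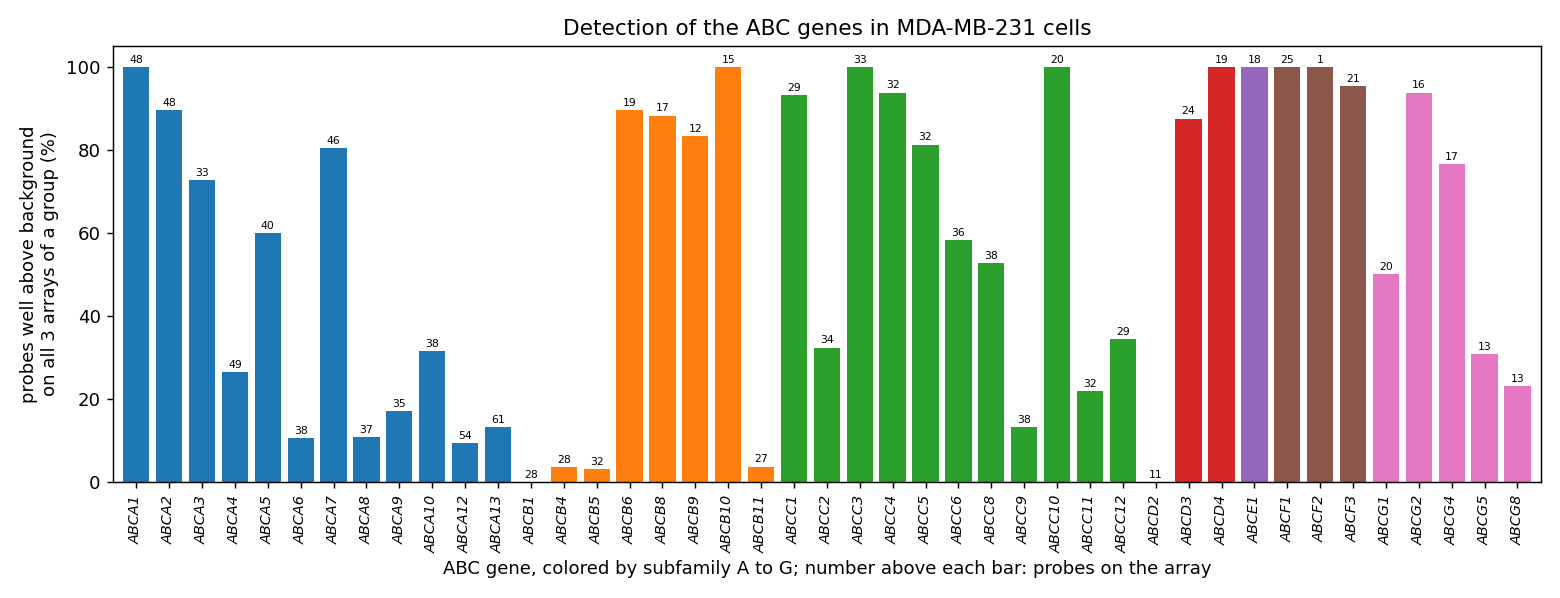
Share of the probes of 43 of the 45 ABC genes that were kept, that is well above background throughout some group (vertical axis, percent), with the number of probes on the array above each bar and one color per subfamily. ABCE1 and the F subfamily stand at or near 100%, and ABCB1 and ABCD2 at 0.

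In control cells the mimic lowered 10 ABC transcripts and raised 1. The 10 were ABCA1, ABCE1, ABCB10, ABCA5, ABCF3, ABCD4, ABCC3, ABCB9, ABCC6 and ABCC2, and the transcript that rose was ABCG2. They cover sterol export (ABCA1), ribosome recycling (ABCE1), the mitochondrial inner membrane (ABCB10), lysosomes (ABCD4, ABCB9) and the efflux of conjugates (ABCC2, ABCC3) and of drugs (ABCG2). Together 11 of 43 members (25.6%) passed, where 22.6% of all genes tested did. Lower calls made up 23.3% of the members and 11% of all genes, and higher calls 2.33% of the members and 11.6% of all genes. The median log2 fold change was -0.08 over the members and 0.01 over all genes, and 29 of 43 estimates were below 0. With each array scaled to its 75th percentile in place of the quantile normalization of the main fit, 7 members passed lower and 2 higher. From the probes that stood well above background on every one of the 12 arrays it was 8 lower and 4 higher. Of all genes 21.4% and 30.2% passed with these settings. The median of the members became 0.03 and -0.0008, against 0.07 and 0.05 over all genes, so its place below 0 depended on the processing. The share of higher calls among all genes was 51.3%, and became 58.5% and 60.5% with these settings. Both of these settings include ABCG2 and ABCC5 among the rises, and the second also ABCB6 and ABCF1. ABCB9, ABCC6 and ABCC2 passed in neither.

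**Figure D2:**
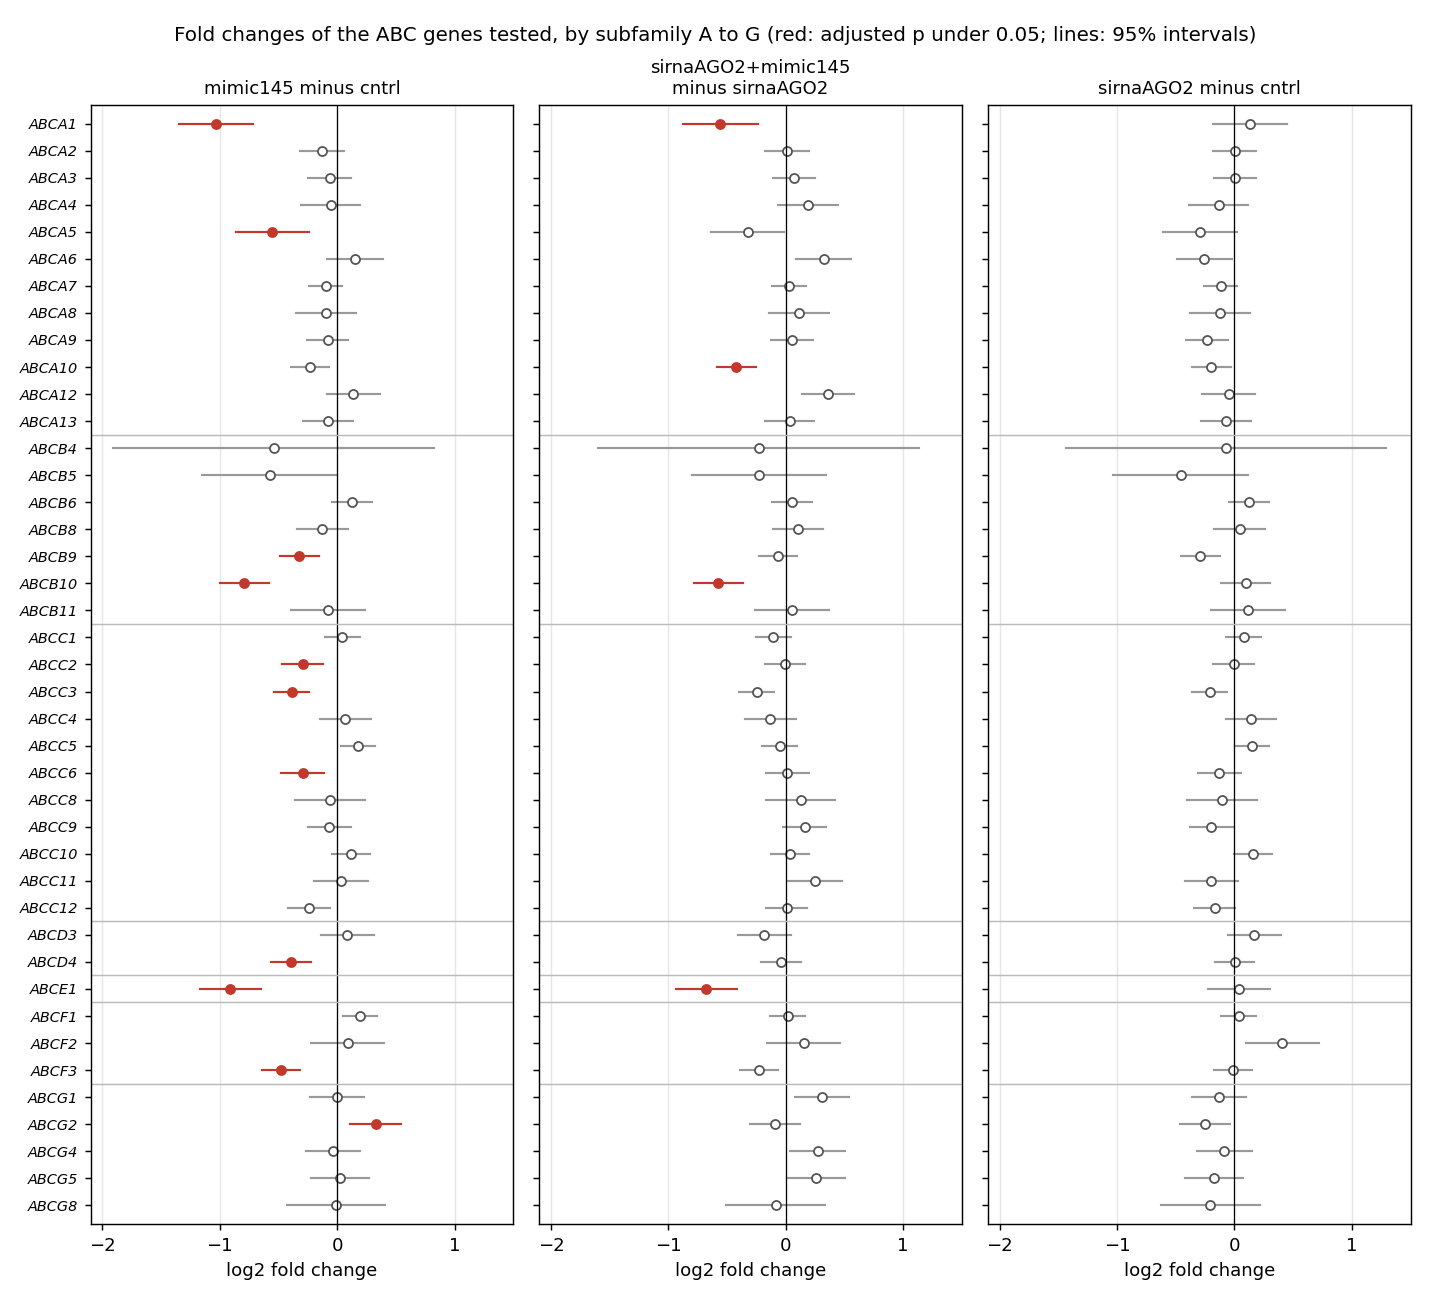
Log2 fold changes (horizontal axis) of 41 of the 43 ABC genes tested, from subfamily A at the top to G at the bottom, for the mimic in control cells (left), the mimic in Ago2-silenced cells (middle) and the silencing alone (right). Points are limma estimates, lines 95% intervals and red marks an adjusted p under 0.05. The left panel has 11 red genes, 10 of them below 0, the middle panel 4 and the right panel none.

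ABCA1 exports cholesterol and phospholipids to lipid-poor apolipoproteins and is a classical target of the liver X receptors. Its 48 probes gave a log2 signal of 8.58, 8.38 and 8.35 on the cntrl arrays and of 7.59, 7.42 and 7.21 on the mimic145 arrays. The groups did not overlap, as for 28.4% of all genes in this comparison. The arrays with the mimic lay lower on every slide, by -0.99, -0.96 and -1.15. The log2 fold change was -1.03 ± 0.14 (SE, n = 3 arrays per group; limma, adjusted p = 0.0013), which left 48.9% of the signal of cntrl. All 48 probes were lower with the mimic, with differences from -1.89 to -0.49, so the fall was seen at every probe of the transcript that the array holds. Corrected with normexp, a background model, the fold change of ABCA1 was -0.74 and still passed (limma, adjusted p = 0.000595).

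In Ago2-silenced cells ABCA1 was less clearly lower. The signal was 8.88, 8.57 and 8.26 in sirnaAGO2 and 8.63, 7.82 and 7.60 in sirnaAGO2+mimic145, and here the groups overlapped, since the first array with the mimic lay above 2 of the 3 without it. On their own slides the arrays with the mimic were lower by -0.26, -0.76 and -0.65. The log2 fold change was -0.56 ± 0.14 (SE; limma, adjusted p = 0.0479), and all 48 probes were again lower, by -1.56 to -0.13. This call lies near the threshold. It held in 10 of 28 alternatives, and a fixed block for the slide, in place of the replicate, gave an adjusted p of 0.0556 (limma).

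ABCE1 splits the ribosome after termination and carries iron-sulfur clusters. Its log2 signal was 10.16, 9.58 and 10.22 in cntrl and 9.08, 9.07 and 9.07 in mimic145. The arrays with the mimic agreed closely, whereas the second cntrl array was the lowest of its group. The groups did not overlap, as for 28.4% of all genes in this comparison. The log2 fold change was -0.91 ± 0.12 (SE; limma, adjusted p = 0.000943). Of 18 probes 17 were lower, with a median of -0.84 and a single probe at -3.48. That probe, on transcript NM_002940, was well above background on 3 of 3 cntrl arrays and on 0 of 3 with the mimic, so its own value is a bound. From the probes that stood well above background on every one of the 12 arrays, the fold change of ABCE1 was -0.79 (limma, adjusted p = 0.000379).

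In Ago2-silenced cells ABCE1 read 10.18, 9.81 and 10.09 without the mimic and 9.57, 9.08 and 9.40 with it. Again there was no overlap, as for 24.1% of all genes in this comparison. The differences within slides were alike, at -0.62, -0.73 and -0.69. The log2 fold change was -0.68 ± 0.12 (SE; limma, adjusted p = 0.0176), and all 18 probes were lower. The same single probe was at -3.11 and not well above background on any of the 3 arrays with both oligonucleotides. Taking the median over probes, the fold change was -0.42 (limma, adjusted p = 0.0431). A fixed block for the slide gave an adjusted p of 0.0521 (limma).

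ABCB10 lies in the inner mitochondrial membrane and is tied to heme synthesis and protection from oxidative stress. Its 15 probes gave 8.08, 7.88 and 8.15 in cntrl and 7.30, 7.18 and 7.24 in mimic145, with a log2 fold change of -0.79 ± 0.09 (SE; limma, adjusted p = 0.000678), the smallest adjusted p of the family. In silenced cells it was 8.14, 8.08 and 8.18 without and 7.81, 7.28 and 7.58 with the mimic, and the fold change was -0.58 ± 0.09 (SE; limma, adjusted p = 0.0154). Neither pair of groups overlapped, as for 28.4% of all genes in control cells and 24.1% in silenced cells. ABCB10 alone among the members also passed in silenced cells with the slide as a fixed block (limma, adjusted p = 0.0475). In each arm 14 of 15 probes were lower, and the same probe was higher in both, by 0.40 and 0.24.

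**Figure D3:**
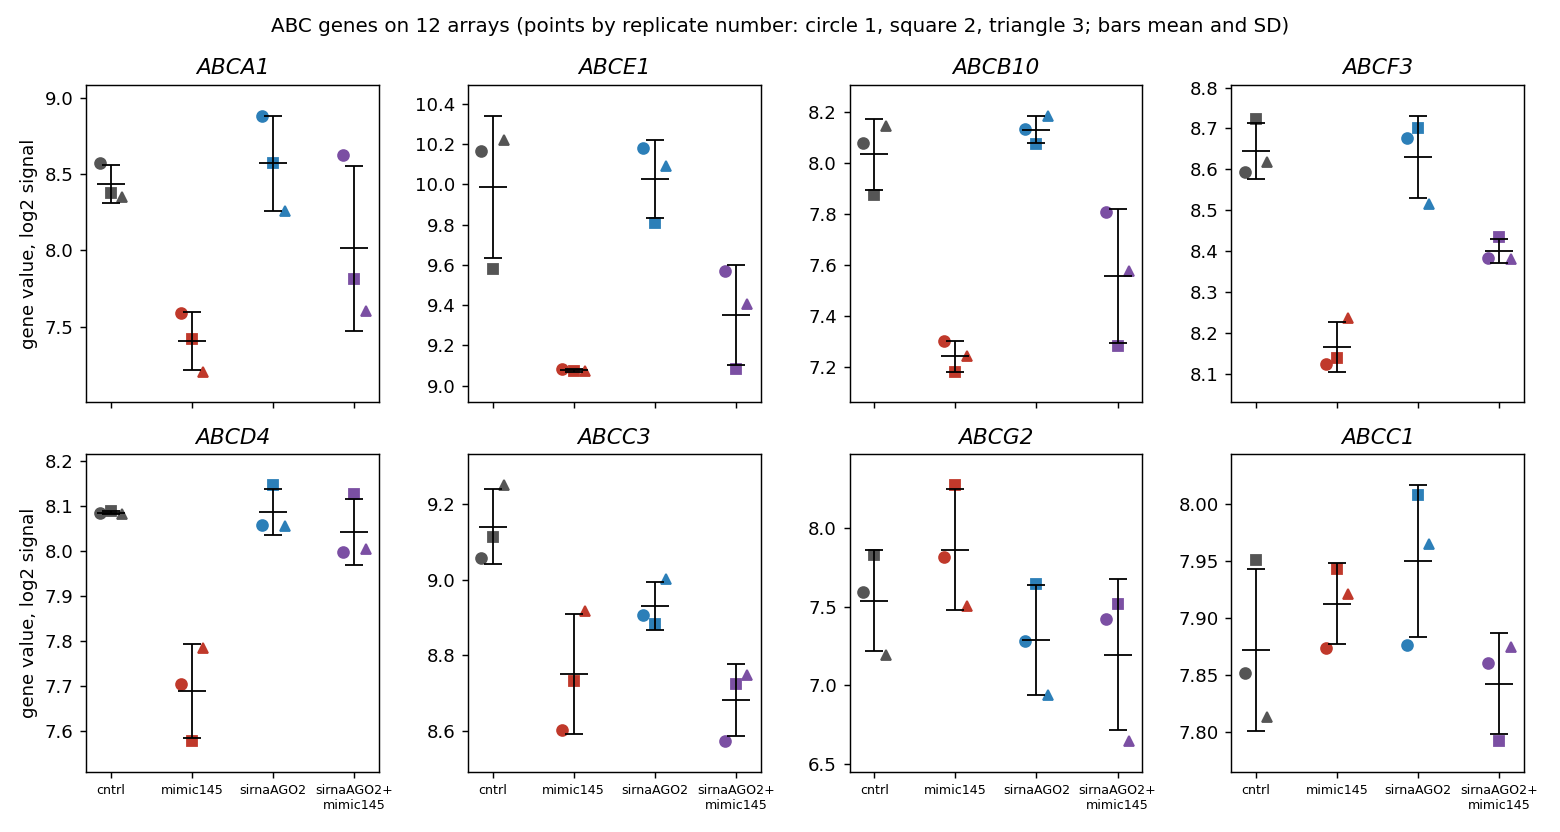
Gene value (vertical axis, quantile normalized log2 signal, a scale of its own for each panel) of 8 ABC genes on the 12 arrays, by group. Points are arrays, with the symbol giving the replicate number, and bars are the mean and SD. ABCA1, ABCE1 and ABCB10 are lower with the mimic in both arms, ABCD4 separates in control cells and not in silenced cells, and ABCC1 lies between 7.79 and 8.01 on all arrays.

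ABCF3 belongs with ABCE1 to the members without a membrane domain, and is related to the yeast translation factor GCN20. Its log2 signal was 8.59, 8.72 and 8.62 in cntrl and 8.12, 8.14 and 8.24 in mimic145. There was no overlap, as for 28.4% of all genes. All 20 kept probes were lower and the fold change was -0.48 ± 0.07 (SE; limma, adjusted p = 0.00194). In silenced cells it was -0.23 (limma, adjusted p = 0.0786), from 8.68, 8.70 and 8.52 to 8.38, 8.43 and 8.38. Those groups did not overlap either, as for 24.1% of all genes in that comparison, and 17 of 20 probes were lower. One probe of ABCF3 stood apart at -1.65 there, and the median over probes gave -0.09 (limma, adjusted p = 0.599).

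The other members of this class read differently. ABCF1, which binds initiation factor eIF2, was at 10.82, 10.65 and 10.76 in cntrl and at 10.98, 10.80 and 11.03 in mimic145, a fold change of 0.19 (limma, adjusted p = 0.0635), with 2 of 25 probes lower. ABCF2 has 1 probe (fold change 0.09, adjusted p = 0.68, limma). The 16 probes of the transcript once assigned to ABCF2 now belong to the readthrough gene ABCF2-H2BK1, whose fold change was 0.06 (limma, adjusted p = 0.573). Of the 4 members without membrane domains, 2 thus passed in the main fit, both lower, where 11% of all genes passed lower.

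Among partners of these proteins in ribosome recycling, release and stress signaling, 13 genes were tested. With the mimic 2 fell and 2 rose, which is 30.8% of them where 22.6% of all genes passed. EIF2AK4, the GCN2 kinase, was among those that fell (-0.68; limma, adjusted p = 0.00106). ETF1, the release factor eRF1, rose by 0.80 (limma, adjusted p = 0.000426), and EIF3J by 0.40 (limma, adjusted p = 0.0328). In silenced cells EIF2AK4 was lower (-0.37; limma, adjusted p = 0.0425) and ETF1 higher (0.35; limma, adjusted p = 0.0407), and the other 11 did not pass.

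**Figure D4:**
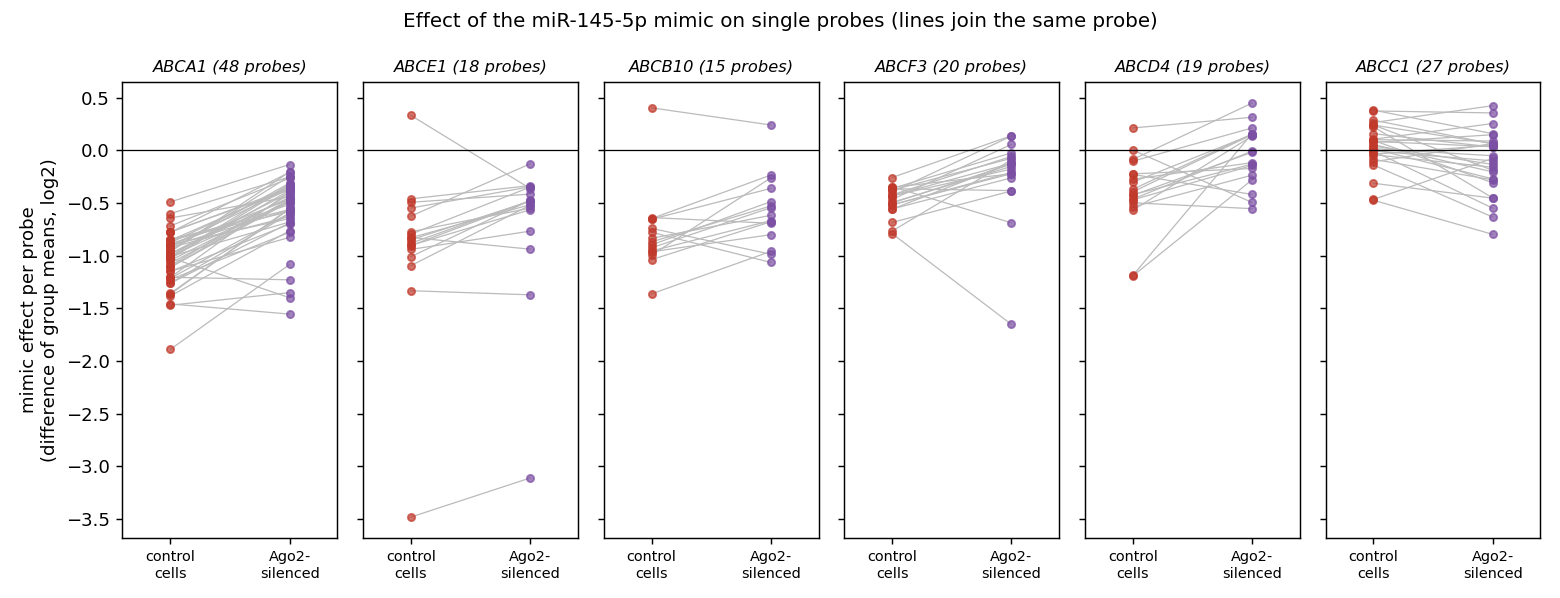
Effect of the mimic on each kept probe of 6 ABC genes (vertical axis, difference of group means on the log2 scale), in control cells (left, red) and in Ago2-silenced cells (right, purple), with a line joining each probe to itself. All probes of ABCA1 lie below 0 in both arms, those of ABCC1 lie on both sides of 0, and 1 probe of ABCE1 lies below -3 in both.

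ABCD4 moves cobalamin (vitamin B12) out of lysosomes together with LMBRD1. Its signal hardly varied between the cntrl arrays, at 8.08, 8.09 and 8.08, and was 7.70, 7.58 and 7.78 in mimic145. The fold change was -0.40 ± 0.07 (SE; limma, adjusted p = 0.00596), with 17 of 19 probes lower, and -0.67 when the median over probes was taken (limma, adjusted p = 0.00715). In silenced cells ABCD4 was 8.057, 8.146 and 8.056 without and 7.997, 8.126 and 8.004 with the mimic, which gave -0.04 with a 95% interval from -0.21 to 0.13 (limma, adjusted p = 0.734). The groups overlapped, and 11 of 19 probes were lower. Within slides the fall was -0.38, -0.51 and -0.30 in control cells and -0.06, -0.02 and -0.05 in silenced cells.

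ABCD3, the peroxisomal membrane protein PMP70, had a fold change of 0.09 in control cells (limma, adjusted p = 0.586) and of -0.18 in silenced cells (limma, adjusted p = 0.253). ABCB9, a lysosomal peptide transporter, fell by 0.32 with the mimic (limma, adjusted p = 0.0134). It read 7.46, 7.67 and 7.34 in cntrl and 7.05, 7.29 and 7.17 in mimic145, and 7.07, 7.34 and 7.20 with silencing alone. Neither the mimic145 nor the sirnaAGO2 arrays overlapped those of cntrl, as for 28.4% and 19.1% of all genes. Of the 10 kept probes of ABCB9, 8 were well above background throughout cntrl and 3 throughout mimic145. From the probes well above background on every one of the 12 arrays its fall with the mimic did not pass. Scaled to the 75th percentile the fall of ABCB9 was 0.18 in size and no longer passed (log2 fold change -0.18; limma, adjusted p = 0.31). Of 12 partners in peroxisomes and cobalamin use, 4 fell and 1 rose in control cells (41.7%, against 22.6% of all genes). Those that fell were HSD17B4, a peroxisomal beta-oxidation enzyme (-0.90; limma, adjusted p = 0.000204), PEX3 (-0.53), MTR, the cobalamin-dependent methionine synthase (-0.36), and LMBRD1 itself (-0.30; limma, adjusted p = 0.0291). PEX14 rose by 0.30. In silenced cells HSD17B4 alone of the 12 passed (-0.33; limma, adjusted p = 0.0385).

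The other mitochondrial members did not pass in the main fit. ABCB6, which is linked to porphyrins, had a fold change of 0.13 with the mimic in control cells (limma, adjusted p = 0.26) and ABCB8 -0.13 (limma, adjusted p = 0.37). So 1 of 4 mitochondrial members passed (25%), a share near the 22.6% of all genes. Of 15 genes of heme and iron-sulfur synthesis, 2 fell and 5 rose, where 11% of all genes fell and 11.6% rose. UROS (-0.32) was among those that fell, while ISCU, the scaffold for iron-sulfur clusters (0.61; limma, adjusted p = 0.00105), SLC25A28 (0.37), FECH, which puts iron into heme (0.32), and GLRX5 (0.24) were among those that rose. In silenced cells ISCU (0.43; limma, adjusted p = 0.02) and UROS (-0.27; limma, adjusted p = 0.0365) passed.

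Of 17 lipid and sterol exporters, 2 passed in control cells (11.8%), a smaller share than the 22.6% of all genes. Beside ABCA1 this was ABCA5, a lysosomal member of the class. It read 7.54, 7.19 and 7.71 in cntrl and 7.19, 6.89 and 6.70 in mimic145, and the groups overlapped narrowly, at the first mimic145 and the second cntrl array. The fold change was -0.55 ± 0.14 (SE; limma, adjusted p = 0.0201), and all 24 kept probes were lower. Within slides it was -0.34, -0.30 and -1.01, so the third slide set much of its size. In silenced cells it was -0.32 (limma, adjusted p = 0.16).

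ABCA10, a neighbor of ABCA5 in the cluster of A members on chromosome 17, had a fold change of -0.23 in control cells (limma, adjusted p = 0.0501) and of -0.42 in silenced cells (limma, adjusted p = 0.0183). Its 12 kept of 38 probes gave 6.96, 6.92 and 7.01 in sirnaAGO2 and 6.55, 6.47 and 6.60 in sirnaAGO2+mimic145. The groups did not overlap, as for 24.1% of all genes in this comparison. Of the 12 probes, 11 were well above background throughout sirnaAGO2 and 6 throughout sirnaAGO2+mimic145. From the probes well above background on every one of the 12 arrays ABCA10 did not pass in silenced cells. With the array scaled to its 75th percentile the fold change was -0.22 (limma, adjusted p = 0.136), and the call held in 10 of 28 alternatives. The other members of that cluster, ABCA6, ABCA8 and ABCA9, passed in neither arm. ABCG1, which works with ABCA1 in sterol efflux, was at 0.00 in control cells (limma, adjusted p = 0.996) and at 0.31 in silenced cells (limma, adjusted p = 0.0926). Of 11 genes that control or accept sterol efflux, NR1H3, the liver X receptor alpha gene, fell by 0.25 in control cells (limma, adjusted p = 0.0154). None of them passed in silenced cells (limma, 0 of 11 at an unadjusted p under 0.05). The methods' t-test, after adjustment, passed 0 of all genes there.

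The drug and conjugate pumps were split. ABCC3, which exports glucuronide conjugates, read 9.06, 9.11 and 9.25 in cntrl and 8.60, 8.73 and 8.92 in mimic145, with a fold change of -0.39 ± 0.07 (SE; limma, adjusted p = 0.00358) and 28 of 33 probes lower. In silenced cells it was 8.907, 8.883 and 9.002 without and 8.574, 8.725 and 8.749 with the mimic. The fold change there was -0.25 and missed the threshold (limma, adjusted p = 0.0543). Neither pair of groups overlapped, as for 28.4% of all genes in control cells and 24.1% in silenced cells. ABCC6 and ABCC2 passed in control cells with fold changes of -0.30 (limma, adjusted p = 0.0304) and -0.29 (limma, adjusted p = 0.024), and read 0.01 and -0.01 in silenced cells. ABCC2 rests on 11 of 34 probes, and from probes detected on every one of the 12 arrays it was 0.07 (limma, adjusted p = 0.626). ABCC6 did not pass with the median over probes (-0.22; limma, adjusted p = 0.166).

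ABCG2, the breast cancer resistance protein, was the only member that passed as higher in the main fit. It read 7.59, 7.83 and 7.19 in cntrl and 7.82, 8.28 and 7.50 in mimic145. The spread between replicates (SD 0.32 and 0.39) was about as large as the difference and the groups overlapped, but on each slide the mimic array was higher, by 0.22, 0.45 and 0.31. The fold change was 0.33 ± 0.09 (SE; limma, adjusted p = 0.0373), with 2 of 15 probes lower. Without the replicate block the adjusted p was 0.526 (limma), and with the median over probes the fold change was 0.09 (limma, adjusted p = 0.587). With the slide as a fixed block ABCG2 did not pass either, and its call held in 10 of 28 alternatives. In silenced cells ABCG2 was 7.28, 7.64 and 6.94 without and 7.42, 7.52 and 6.64 with the mimic, and the fold change was -0.09 (limma, adjusted p = 0.544).

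The remaining pumps did not pass in either arm in the main fit. ABCC1, the multidrug resistance protein that exports glutathione conjugates and many drugs, read 7.85, 7.95 and 7.81 in cntrl and 7.87, 7.94 and 7.92 in mimic145. Its fold change was 0.04, with a 95% interval from -0.11 to 0.19 (limma, adjusted p = 0.702), and 10 of 27 probes were lower. ABCC4, the exporter of cyclic nucleotides, was at 0.07 (limma, adjusted p = 0.656), ABCC10 at 0.12 (limma, adjusted p = 0.278) and ABCC5 at 0.18 (limma, adjusted p = 0.0854). Their intervals ran from -0.15 to 0.29, from -0.04 to 0.28 and from 0.03 to 0.32. ABCC5 passed as higher in 3 of 28 alternatives, 75th percentile scaling and the probes on all 12 arrays among them. In the drug and conjugate class as a whole 3 of 10 members fell and 1 rose, where 11% of all genes fell and 11.6% rose. Of 8 genes of xenobiotic control, which include NFE2L2 and AHR, only the cystine transporter SLC7A11 passed, with a rise of 0.41 (limma, adjusted p = 0.0264).

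In Ago2-silenced cells, 4 members passed with the mimic, all lower, namely ABCE1, ABCB10, ABCA1 and ABCA10. This is 9.30% of the members, where 7.28% of all genes passed, 3.03% lower and 4.25% higher. The median over the members was 0.01, against 0.02 over all genes. Of the 10 genes that fell in control cells, 9 had a fold change below 0 on the silenced arrays, 3 passed there, and 7 were lower on all 3 slides. Their median fold change was -0.44 in control cells and -0.24 in silenced cells. These 10 were picked by their value in control cells, so a smaller second value is a description. The calls in silenced cells were less stable than those in control cells. Without the replicate block 0 members passed, where 0.427% of all genes did. With the slide as a fixed block 1 passed, ABCB10, where 1.73% of all genes did. With scaling to the 75th percentile 3 passed lower and 2, ABCA6 and ABCA12, higher, where 13.1% of all genes passed. Scaling in this way put the median of all genes at 0.11 in this comparison.

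The difference between the mimic effects of both arms was tested directly. No member passed (limma), and 0.011% of all genes passed. The methods' paired t-test, after adjustment, passed 0 of all genes, so its 0 says nothing about the members. At an unadjusted p under 0.05 (limma) there were 8 of 43 members (18.6%), against 16.8% of all genes. ABCD4 had the smallest p of the family, with a difference of 0.35 ± 0.11 (SE; limma, unadjusted p = 0.00892, adjusted p = 0.168). For ABCG2 the difference was -0.42 (limma, adjusted p = 0.187) and for ABCA1 0.48, with a 95% interval from 0.03 to 0.93 (limma, adjusted p = 0.277). For ABCE1 it was 0.24 (interval -0.13 to 0.60) and for ABCB10 0.22 (interval -0.08 to 0.51). For no single ABC gene did this test tell a mimic effect that is lost without Ago2 from one that is kept.

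Silencing of Ago2 alone changed no ABC transcript by this test. Of 43 members 0 passed (limma), where 2.57% of all genes did, and 9 (20.9%) had an unadjusted p under 0.05, near the 19% of all genes. The methods' paired t-test, after adjustment, passed 0 of all genes, so its 0 says nothing about the members. The limma estimates ran from -0.46 to 0.41, with a median of -0.07 over the members and -0.03 over all genes. ABCB9 was nearest to the threshold, at -0.29 (limma, adjusted p = 0.0758). ABCA1, ABCE1 and ABCB10 read 0.13, 0.04 and 0.10, none of which passed. From probes detected on every one of the 12 arrays, 3 members passed lower, namely ABCA10, ABCB9 and ABCG2, and 6.81% of all genes passed in either direction. No slide held both arms, so a difference between slides and one of silencing cannot be told apart in this comparison.

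Over the 12 arrays, the genes with at least 3 kept probes whose values ran most like ABCA1 were YEATS4 (Pearson r = 0.969), CEP19 (0.965) and LAMA3 (0.962). For ABCE1 they were SUPT16H (0.984), IREB2 (0.980) and SH3D19 (0.979). These are the highest of 13329 genes over arrays that share groups and slides, and are given as a description. Several members, such as ABCB10, ABCC6 and ABCE1, have pseudogenes with similar sequence, and whether their probes also read those copies was not tested.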

How the data were processed

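RNA of MDA-MB-231 cells was hybridized by the authors to 12 single-color Agilent exon arrays read with Agilent Feature Extraction 10.7.3.1. The authors' deposited scanner output gives an intensity per spot, the processed signal, after background correction but before any normalization across arrays. A log2 matrix of 217027 probes, also deposited by the authors after quantile normalization, served as an alternative. Each of the 12 columns correlated best with the signal of its own array (r of at least 0.993).

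Control and outlier spots were left out. Intensities were floored at 1, quantile normalized over 12 arrays, log2 transformed and averaged per probe. Of 233164 probes, the accession of the target transcript gave 209671 (89.9%) a gene in the RefSeq gene list. No reference genome was used, so probe positions are not given. Kept probes were averaged per gene, 142957 in all.

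The 4 groups and a block for the replicate number entered 1 linear model of the 12 arrays in limma 3.58.1 in R 4.3.3 (with the data.table package, 1.17.8) with two-sided tests. The fit was tested on simulated data. The labels' replicate numbers and the paired test of the methods give the pairing. The deviations of arrays from their group means correlated by 0.139 to 0.577 for 18 pairs of the same number and by -0.495 to 0.201 for 36 others. Plots used Python 3.11.15, matplotlib 3.10.9 and pandas 2.3.3.

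Genes named are the members that passed in any comparison, members named in the study for this experiment, the drug pumps, the member of each subfamily with most kept probes, and members without a kept probe; other members were named to complete a class and after their values were seen. The members, the lists of partners and the tests were chosen with earlier results of these data known. Alternatives were 75th percentile scaling, normexp (offset 50), the deposited log2 matrix, other probe filters, the median over probes, other blocks, only the arrays compared, an intensity trend, the methods' t-test, other thresholds, and fits without each replicate or single array. ABCC13, a pseudogene, and the authors' other assays were not analysed here. Results on some items are not reported here.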

Additional observations from a re-analysis of the deposited data

How the results depend on the processing

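The count of ABC genes that passed with the mimic in control cells was 11. With no replicate block it was 6, where 10.9% of all genes passed, against 22.6% in the main fit. With the slide as a block it was 9, where 17.7% of all genes passed. The methods' paired t-test after adjustment gave 0, as over all genes. The count was 6 from a fit of those groups alone, 6 at an adjusted p under 0.01 and 4 with an added minimum change of 0.5 (log2). Leaving out replicates or single arrays gave 3 to 12, with 3 without replicate 1, 7 without replicate 2 and 7 without cntrl replicate 1. In Ago2-silenced cells the count was 4. With no replicate block it was 0, where 0.427% of all genes passed, against 7.28% in the main fit. With the slide as a block it was 1, where 1.73% of all genes passed. The methods' t-test gave 0, as over all genes. The count was 0 from a fit of those groups alone and 0 at an adjusted p under 0.01. Leaving out replicates or arrays gave 0 to 7. It was 0 without replicate 2, replicate 3, sirnaAGO2 replicate 2 or 3, or sirnaAGO2+mimic145 replicate 3, 1 without sirnaAGO2 replicate 1 or sirnaAGO2+mimic145 replicate 2, 2 without replicate 1, and 7 without sirnaAGO2+mimic145 replicate 1. For silencing alone the count of 0 became 3 with probes well above background on all 12 arrays, where 6.81% of all genes passed. It was 0 to 1 with arrays left out, the 1 being ABCF2 without mimic145 replicate 1. The difference of the mimic effects gave 0 under all alternatives run, where 0.011% of all genes passed in the main fit. Counts given here without a share of all genes are a description of the processing and no result about the members. At the threshold of the methods, an unadjusted p of at most 0.05, their t-test passed 10, 7, 7 and 5 members in these 4 comparisons, and 21.2%, 14.2%, 17.4% and 10.4% of all genes.

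In control cells ABCA1, ABCE1 and ABCB10 passed in 27 of 28 alternatives each, the exception being the methods' t-test, and ABCC2 turned to 0.067 with probes on all 12 arrays and to 0.024 with the median over probes. The cause was not tested. Scaling to the 75th percentile moved the share of higher calls among all genes in silenced cells from 58.4% to 80.1%, and probes on all 12 arrays to 76.4%. Members with few probes above background, and 3 arrays per group, limit what can be called.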

Other observations

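ABCA11P, a pseudogene transcript outside the family rule that the study names beside the members, had 2 kept probes and log2 fold changes with the mimic of -0.18 in control cells (limma, adjusted p = 0.603) and -0.27 in silenced cells (limma, adjusted p = 0.446). Of the ABC proteins whose genes carry other symbols, the peptide transporters of antigen presentation were at -0.03 for TAP1 (limma, adjusted p = 0.787) and 0.01 for TAP2 (limma, adjusted p = 0.935), and the chloride channel gene CFTR, on 2 kept probes, was at -0.22 (limma, adjusted p = 0.144).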
